A study of Mus musculus with 24 samples.

Results

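The metallothionein and zinc transport genes of the mouse liver were followed across 24 mice in 3 groups. The group consists of 7 genes: the metallothioneins Mt1 and Mt2, the zinc-sensing transcription factor Mtf1, the importers Slc39a14 (ZIP14) and Slc39a8 (ZIP8), and the exporters Slc30a1 (ZnT1) and Slc30a10 (ZnT10). They were found by matching the Ensembl identifiers of the expression table to gene symbols in GENCODE M21, and all 7 were among its 22392 genes. C26-CHO mice (n = 8) were injected with C26 tumour cells and were fed cholestyramine (2% w/w) on days 1 to 10 after injection. C26 mice (n = 8) carried the transplanted C26 tumour without treatment, and CT mice (n = 8) were sham-injected. All were of the CD2F1 strain. The labels name no age, sex or batch. C26 is a mouse colon carcinoma line used as a model of cancer wasting, and cholestyramine is a bile acid sequestrant, a resin that stays in the gut. Each library was made from the liver of a single mouse.

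Metallothioneins are small cysteine-rich proteins that bind zinc and copper in the cytosol. When free zinc rises, MTF-1, the protein of Mtf1, binds metal response elements in the promoters of the metallothionein genes and of Slc30a1, and inflammatory cytokines and glucocorticoids are known as further inducers of Mt1 and Mt2 in liver. ZIP14 carries zinc, manganese and iron that is not bound to transferrin into hepatocytes, ZIP8 carries zinc and manganese, ZnT1 moves zinc out of the cell, and ZnT10 moves manganese out of the cell.

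Mt2 and Mt1 lie side by side on the plus strand of chromosome 8 (GENCODE M21, build GRCm38), Mt2 (ENSMUSG00000031762) at chr8:94172664-94173568 and Mt1 (ENSMUSG00000031765) at chr8:94179082-94180327, with 5513 bases between them. The coding sequences of the main annotated transcripts, Mt1-201 and Mt2-201, are printed because the measured values rest on telling reads of these near relatives apart. Capitals mark the bases at which they differ. Both hold 186 bases including the stop codon and encode 61 residues, of which 20 are cysteine. They are identical at 148 bases (79.6%) and differ at 38, and the longest exact run that the 2 transcripts share is 20 bases. How long the reads were, and how reads mapping to several places were handled, is not given in the sources used here.
Mt1 coding sequence: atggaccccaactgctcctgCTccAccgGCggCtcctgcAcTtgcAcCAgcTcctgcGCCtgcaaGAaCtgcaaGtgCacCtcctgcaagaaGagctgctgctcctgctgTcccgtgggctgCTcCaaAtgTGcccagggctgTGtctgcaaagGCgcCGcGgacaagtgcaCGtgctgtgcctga
Mt2 coding sequence: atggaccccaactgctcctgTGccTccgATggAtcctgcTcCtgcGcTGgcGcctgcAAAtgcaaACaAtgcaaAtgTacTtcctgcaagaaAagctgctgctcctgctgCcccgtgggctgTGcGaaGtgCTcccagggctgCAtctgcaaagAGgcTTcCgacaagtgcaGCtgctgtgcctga

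The promoters of 6 of the 7 genes were matched in a RefSeq table of build GRCm38.p6, and Slc39a14 was not matched. The 250 bases before the RefSeq start are printed for Mt1, Mt2 and Slc30a1, known targets of MTF-1, and for Slc30a10, which had several matches. Capitals mark matches to the core of that element, TGCACNC or TGCGCNC on either strand. Windows of this length held at least 1 match in 21.4% of 32851 promoters and at least 3 in 1.26%. The Mt2 window held 3 matches, the Slc30a10 window 3 of which 2 overlap each other, and the Mt1 and Slc30a1 windows 1 each. No match was found in the window of Mtf1, and the windows of the 2 annotated Slc39a8 starts held 0 and 1. All 4 windows are on the plus strand, at chr8:94178839-94179088 for Mt1, chr8:94172368-94172617 for Mt2, chr1:191906531-191906780 for Slc30a1 and chr1:185454598-185454847 for Slc30a10.
Mt1 promoter: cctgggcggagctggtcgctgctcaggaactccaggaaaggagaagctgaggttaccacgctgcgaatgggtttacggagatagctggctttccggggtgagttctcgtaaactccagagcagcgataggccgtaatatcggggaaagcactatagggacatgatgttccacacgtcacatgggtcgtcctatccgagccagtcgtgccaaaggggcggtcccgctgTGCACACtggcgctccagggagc
Mt2 promoter: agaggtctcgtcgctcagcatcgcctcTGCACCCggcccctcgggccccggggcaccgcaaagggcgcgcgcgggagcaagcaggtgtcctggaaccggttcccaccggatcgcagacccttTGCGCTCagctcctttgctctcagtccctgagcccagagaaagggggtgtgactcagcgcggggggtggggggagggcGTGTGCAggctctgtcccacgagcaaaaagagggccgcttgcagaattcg
Slc30a1 promoter: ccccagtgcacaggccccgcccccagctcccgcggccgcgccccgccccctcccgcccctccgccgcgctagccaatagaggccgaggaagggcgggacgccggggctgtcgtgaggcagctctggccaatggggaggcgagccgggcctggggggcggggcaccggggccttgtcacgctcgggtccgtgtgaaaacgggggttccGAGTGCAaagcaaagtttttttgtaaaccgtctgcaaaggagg
Slc30a10 promoter: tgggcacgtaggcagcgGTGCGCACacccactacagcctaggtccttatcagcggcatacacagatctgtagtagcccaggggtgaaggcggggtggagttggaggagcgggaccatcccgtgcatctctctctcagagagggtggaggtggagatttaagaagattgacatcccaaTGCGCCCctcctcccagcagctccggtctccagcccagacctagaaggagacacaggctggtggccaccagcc

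The annotated leaders of Mt1-201 and Mt2-201 are long, so the same core was also counted in the 184 bases of transcript just before the coding start. Mt1 held 2 matches there and Mt2 held 3. Each also held a TATAAA, which began 101 bases before the coding start in Mt1 and 95 bases before it in Mt2, downstream of all of those matches. The printed Mt1 and Mt2 windows held no TATAAA and lie upstream of these stretches. The bases between each window and its 184 bases were not scanned, so the counts do not cover the whole promoter region. Among 10165 transcripts with a leader at least as long, 3.73% held 2 or more matches and 0.571% held 3 or more. A match describes the letters and does not show that MTF-1 binds them.

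Depth was 25.8 ± 3.50 M recovered reads per library in C26-CHO livers, 22.8 ± 2.90 M in C26 livers and 22.02 ± 1.10 M in CT livers (SD, n = 8 each). Values are normalized read counts, that is, the reads of a gene divided by the size factor of the library. Groups were compared with limma on log2 of the value plus 1 over the 14040 genes whose values averaged 10 or more, and a call required a Benjamini-Hochberg adjusted p under 0.05. All 7 genes passed this filter, and the fewest reads behind any of their values were 152 (Mt2). Fold changes are on that log2 scale with their standard error (SE). The hepatocyte markers Alb, Apoa1, Ttr, Hnf4a and Cps1 were present in every library, Hnf4a with a lowest value of 10128. A pair of libraries stood apart. C26-CHO 1 lay between the tumour and sham groups on the first principal component (-13.41, against 28.81 to 54.62 in C26 livers and -83.15 to -75.36 in CT livers), and CT 4 had the highest Mt1 and Mt2 values of the sham group. Results that rest on them are given with and without them.

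Tumour-bearing livers held far more metallothionein RNA than sham livers, whether or not cholestyramine was fed. Mt1 had values of 26525, 53638 and 62094 (lowest, median and highest) in C26-CHO livers, 44696, 54509 and 60526 in C26 livers, and 266, 848 and 4160 in CT livers. Every tumour-bearing liver lay above every sham liver, and the 2 tumour groups overlapped. Here and for the genes below, the share of all genes tested whose ranges separate in this way was not counted. Mt2 had values of 19368, 35502 and 41670 in C26-CHO livers, 31219, 36561 and 42171 in C26 livers, and 134, 319 and 2243 in CT livers. Its groups were ordered in the same way. The arithmetic means of C26 livers were 44.7 times those of CT livers for Mt1 and 70.7 times for Mt2, and without CT 4 they were 68.1 and 132.5 times.

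On the log2 scale Mt1 rose by 5.91 in C26 vs CT (SE 0.319, limma adjusted p = 2.27e-14) and Mt2 by 6.77 (SE 0.347, limma adjusted p = 7.86e-15). Among the 14040 genes ordered by that change, Mt2 stood at rank 19 and Mt1 at rank 27. These values correspond to 60.3-fold and 109-fold differences of geometric means, and they are larger than the ratios of arithmetic means, in which CT 4 weighs more. Without CT 4 the changes were 6.23 for Mt1 and 7.16 for Mt2. DESeq2 with its default handling of outlying counts gave 3.31 for Mt1 and 3.42 for Mt2, and with that handling switched off it gave 5.48 and 6.14. Mt1 and Mt2 were called in each of these fits.

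The spread between sham livers was wide. The coefficient of variation was 21.7% in C26-CHO, 9.64% in C26 and 101% in CT livers for Mt1, and 19.9%, 9.37% and 134% for Mt2. CT 4 accounted for much of the sham spread: without it the CT mean of Mt1 was 801 ± 339, against 1221 ± 1228 with it (SD, n = 7 and n = 8), and that of Mt2 was 281 ± 119, with a median of 303 (SD, n = 7). The C26-CHO spread fell likewise without C26-CHO 1, to an Mt1 mean of 54828 ± 5252 (SD, n = 7), against 51290 ± 11125 with it.

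**Figure D1:**
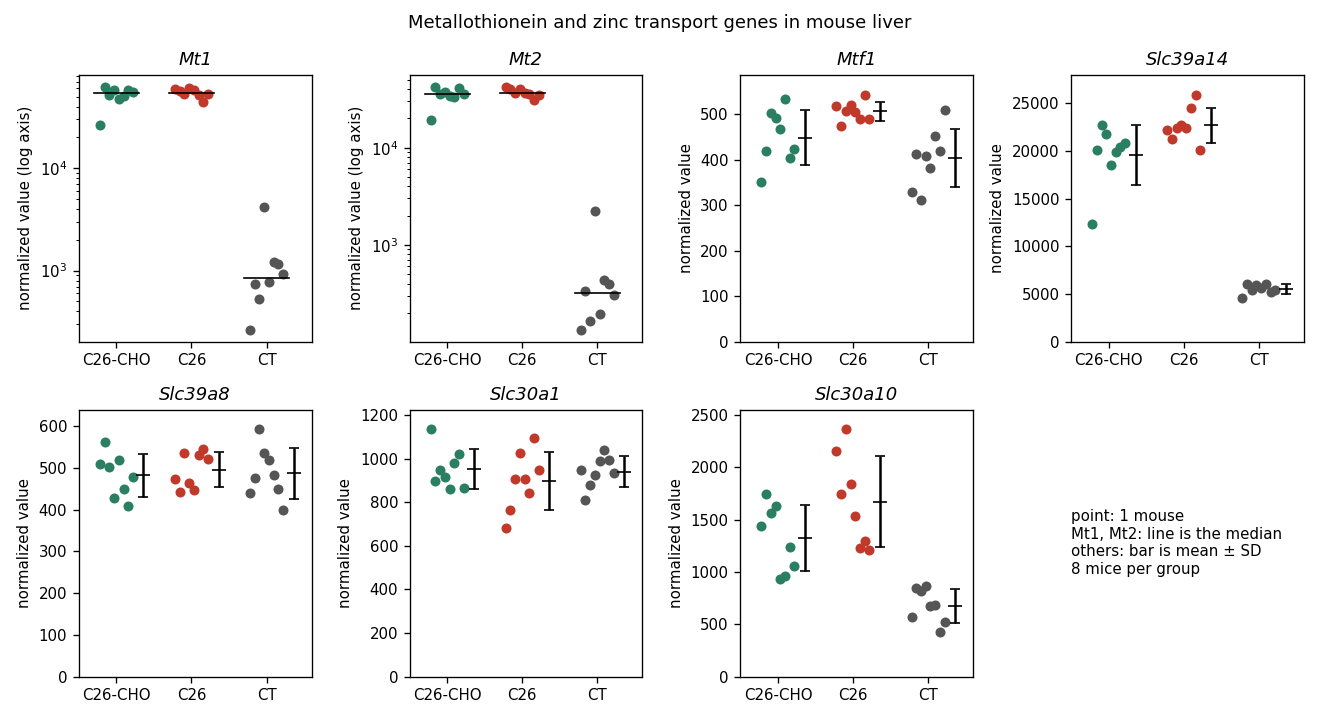
Normalized values of the 7 genes in every liver, in C26-CHO, C26 and CT mice from left to right (8 points per group; the Mt1 and Mt2 panels have a log axis and mark the median, the other panels start at 0 and mark the mean ± SD). Mt1, Mt2, Slc39a14 and Slc30a10 show no overlap between tumour-bearing and sham livers, and the lowest C26-CHO point of Mt1 (26525), Mt2 (19368) and Slc39a14 (12355) is C26-CHO 1. How many of all genes tested show no such overlap was not counted.

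The 2 metallothioneins together made up 0.345% ± 0.0600 of all recovered reads in C26-CHO livers, 0.362% ± 0.0300 in C26 livers and 0.00866% ± 0.00926 in CT livers (SD, n = 8 each). Without CT 4 the CT share was 0.00547% ± 0.0023 (SD, n = 7). Ranked by mean value per kilobase of annotated exon among 21959 genes, Mt2 stood at 35 in C26-CHO, 32 in C26 and 1010 in CT livers. Mt1 stood at 45 in C26-CHO, 43 in C26 and 936 in CT livers. Without CT 4 the CT ranks were 1681 for Mt2 and 1305 for Mt1. The exon length is that of all annotated exons together, 1246 bases for Mt1 and 588 for Mt2, whereas Mt1-201 has 549 and Mt2-201 has 511 bases, so the order of Mt1 and Mt2 per length depends on which length is used.

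In the recorded values the increase was larger for Mt2 than for Mt1. An antisense gene, Gm45774 (chr8:94170748-94173412), overlaps Mt2 on the opposite strand and is not in the expression table. The use of strand in counting is not given, and the part of this overlap in the Mt2 values was not tested. The Mt2 value divided by the Mt1 value was 0.681 ± 0.0327 in C26-CHO livers, 0.682 ± 0.0257 in C26 livers and 0.386 ± 0.102 in CT livers (SD, n = 8 each). The lowest C26 ratio was 0.631 and the highest CT ratio 0.539, so these groups did not overlap. The log2 ratio differed by 0.86 in C26 vs CT and by 0.86 in C26-CHO vs CT (exact two-sided permutation test, adjusted p = 0.000233 over 6 ratio tests, from a p of 0.000155, the smallest that 8 against 8 mice allow). In C26-CHO vs C26 it differed by -0.002 (exact permutation test, adjusted p = 0.95).

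**Figure D2:**
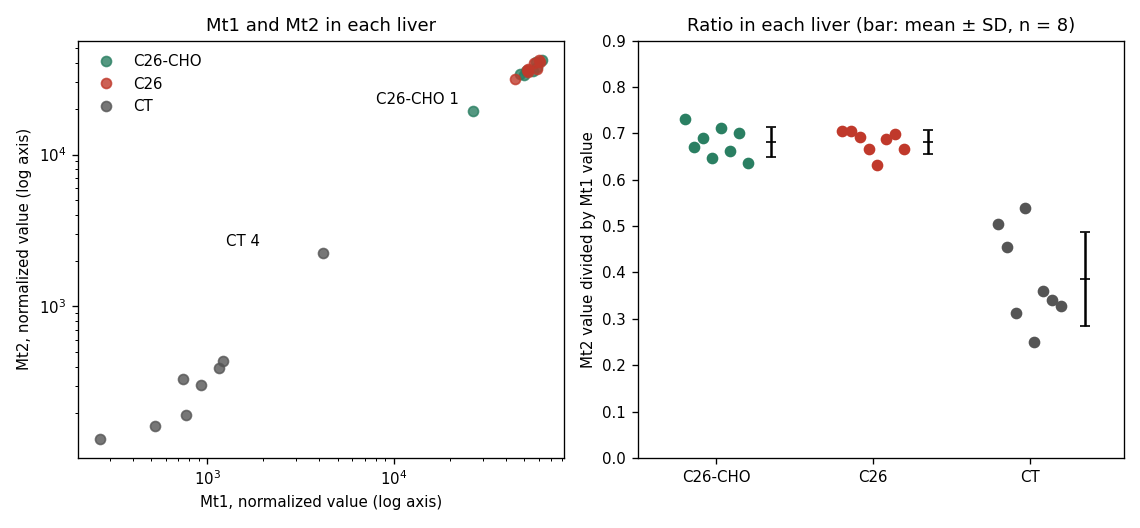
Left, the Mt2 value against the Mt1 value of each liver, both on log axes. Right, the Mt2 value divided by the Mt1 value in C26-CHO, C26 and CT livers (points are mice, bars mean ± SD, n = 8). The ratio lay at 0.637 or above in every C26-CHO liver, at 0.631 or above in every C26 liver and at 0.539 or below in every CT liver.

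Within groups, Mt1 and Mt2 varied together from mouse to mouse. Pearson's r was 0.989 in C26-CHO livers (exact permutation p = 0.000223, adjusted p = 0.00703 over 63 relations), with a Spearman rho of 0.952 (exact p = 0.00114, adjusted p = 0.0703). In C26 livers r was 0.924 (exact p = 0.00246, adjusted p = 0.0516), with a rho of 0.881 (exact p = 0.00724, adjusted p = 0.152). In CT livers r was 0.956 (exact p = 0.000198, adjusted p = 0.00703), with a rho of 0.929 (exact p = 0.00223, adjusted p = 0.0703). With the 2 mice farthest from the median Mt1 value left out, r was 0.848 in C26-CHO, 0.803 in C26 and 0.874 in CT livers. Of the 21 pairs among the 7 genes, Mt1 with Mt2 was the only pair with an adjusted p of r under 0.05, in C26-CHO and CT livers. Mt1 with Slc39a14 in C26-CHO livers had r = 0.926 (exact p = 0.0321, adjusted p = 0.333, rho 0.595 with exact p = 0.132 and adjusted p = 0.556), which was 0.503 without C26-CHO 1 and C26-CHO 2 and so rests on those mice. Mt1 with Slc39a8 in C26 livers had r = -0.819 (exact p = 0.0125, adjusted p = 0.198, rho -0.762 with exact p = 0.0368 and adjusted p = 0.556), and -0.848 without C26 4 and C26 7.

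Mtf1 (ENSMUSG00000028890, chr4:124802104-124849800), whose protein carries the zinc signal to the metallothionein promoters, changed little beside them. Its values were 351, 445 and 533 (lowest, median and highest) in C26-CHO livers, 475, 505 and 543 in C26 livers, and 311, 410 and 509 in CT livers. The C26 range overlapped that of CT, with 3 C26 livers above every CT liver. Mtf1 rose by 0.34 in C26 vs CT (SE 0.0873, limma adjusted p = 0.00124), where the median of all genes was 0.01. The direction depends on the scaling. With values scaled to all recovered reads the Mtf1 change was -0.003 (adjusted p = 0.976), where the median of all genes was -0.34. In C26-CHO vs CT the Mtf1 difference was 0.16 (limma adjusted p = 0.116). It was 0.21 without C26-CHO 1 (adjusted p = 0.0326) and 0.21 without CT 8 (adjusted p = 0.0329). An opposite-strand gene, 1110065P20Rik, overlaps the end of Mtf1 and had a mean value of 109.7, and the use of strand in counting is not given in the sources used here.

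Of the importers, Slc39a14 rose and Slc39a8 was not called. Slc39a14 (ENSMUSG00000022094, chr14:70303469-70351425, minus strand) had values of 12355, 20224 and 22727 in C26-CHO livers, 20049, 22348 and 25886 in C26 livers, and 4606, 5533 and 6062 in CT livers. Every tumour-bearing liver lay above every sham liver. Its log2 change in C26 vs CT was 2.03 (SE 0.0909, limma adjusted p = 5.09e-16), a 4.09-fold ratio of arithmetic means, and in C26-CHO vs CT it was 1.80 (limma adjusted p = 6.98e-15).

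Slc39a8 (ENSMUSG00000053897, chr3:135825279-135888572) had values of 409, 489 and 562 in C26-CHO livers, 443, 497 and 544 in C26 livers, and 399, 478 and 592 in CT livers. The 3 ranges lay over each other. The log2 difference in C26 vs CT was 0.03 (95% confidence interval -0.13 to 0.19, limma adjusted p = 0.744) and in C26-CHO vs CT it was -0.01 (-0.17 to 0.15, adjusted p = 0.91). Scaled to all recovered reads these differences were -0.32 (adjusted p = 0.00179) and -0.32 (adjusted p = 0.00172), where the median of all genes was -0.34 and -0.30.

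The ratio of the 2 importers does not depend on the scaling of libraries. The Slc39a14 value divided by the Slc39a8 value was 41.2 ± 8.82 in C26-CHO livers, 45.9 ± 3.87 in C26 livers and 11.5 ± 1.44 in CT livers (SD, n = 8 each). The log2 ratio differed by 2.00 in C26 vs CT and by 1.82 in C26-CHO vs CT (exact permutation test, adjusted p = 0.000233 for each), and by -0.19 in C26-CHO vs C26 (exact permutation test, adjusted p = 0.211). Per kilobase of annotated exon, the mean value of Slc39a14 was 1854 in C26-CHO, 2147 in C26 and 525 in CT livers, and that of Slc39a8 was 62.9 in C26-CHO, 64.6 in C26 and 63.4 in CT livers.

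Of the exporters, the manganese exporter gene Slc30a10 rose, and Slc30a1, the MTF-1 target that exports zinc, was not called. Slc30a10 (ENSMUSG00000026614, chr1:185454848-185468762) had values of 936, 1337 and 1749 in C26-CHO livers, 1207, 1641 and 2364 in C26 livers, and 428, 678 and 866 in CT livers. Both tumour groups lay above every sham liver. The log2 change was 1.30 in C26 vs CT (SE 0.168, limma adjusted p = 1.73e-07) and 0.97 in C26-CHO vs CT (limma adjusted p = 1.75e-05). The lincRNA Gm2061 overlaps its first exon on the opposite strand and had a mean value of 31.9.

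Slc30a1 (ENSMUSG00000037434, chr1:191906767-191913247) had values of 863, 934 and 1136 in C26-CHO livers, 681, 909 and 1096 in C26 livers, and 812, 943 and 1041 in CT livers. The C26 group spread the most and covered the whole sham range. The log2 difference was -0.08 in C26 vs CT (95% confidence interval -0.24 to 0.08, limma adjusted p = 0.388) and 0.02 in C26-CHO vs CT (-0.15 to 0.18, adjusted p = 0.865). Scaled to all recovered reads it was -0.43 (adjusted p = 0.000145) in C26 vs CT and -0.29 (adjusted p = 0.00545) in C26-CHO vs CT. With that scaling the median of all genes was -0.34 in C26 vs CT and -0.30 in C26-CHO vs CT. The opposite-strand gene 1700034H15Rik overlaps the start of Slc30a1 and had a mean value of 8.86.

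In C26 vs CT, 5 of the 7 genes were called, all higher, where 66.3% of all genes tested were called, 33.3% higher and 32.9% lower. Their median log2 change was 1.30, against 0.01 over all genes tested. In C26-CHO vs CT, 4 were called, all higher, where 62.2% of all genes tested were called, 31.3% higher and 30.9% lower, with a median of 0.97 against 0.001. The 2 comparisons share the CT livers. The C26 vs CT and C26-CHO vs CT call counts were each higher, at 6 (4 higher and 2 lower), when values were scaled to all recovered reads. Of all genes tested, that scaling called 2347 higher and 8178 lower in C26 vs CT, and 2225 higher and 7900 lower in C26-CHO vs CT.

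Liver tissue holds several cell types, and in bulk RNA fewer cells of a type and less RNA per cell cannot be told apart. In C26 vs CT, to which the marker counts here refer, 33.3% of all genes tested were called higher and 32.9% lower. Of 8 Kupffer cell and macrophage markers, 7 rose in C26 vs CT. Their summed value ran from 7188 to 12585 in C26-CHO, from 7491 to 9807 in C26 and from 4270 to 6197 in CT livers. All 4 tested of 10 neutrophil markers rose, with sums from 185 to 503 in C26-CHO, from 264 to 876 in C26 and from 40.8 to 81.0 in CT livers. Of 8 sinusoidal endothelial markers 6 rose and 1 fell, with sums from 5612 to 9233 in C26-CHO, from 7000 to 9115 in C26 and from 5197 to 6750 in CT livers. Of the 11 hepatocyte markers 3 rose and 5 fell, with sums from 1480456 to 1969761 in C26-CHO, from 1735723 to 1973535 in C26 and from 1923460 to 2195755 in CT livers. Of 5 tested cholangiocyte markers 2 rose and 3 were not called, with a median log2 change of -0.13, so the sums do not describe every marker. These sums ran from 2164 to 9450 in C26-CHO, from 5471 to 11394 in C26 and from 312 to 473 in CT livers. Of 8 stellate cell and fibroblast markers 2 rose and 1 fell, of 5 tested erythroid markers 3 rose and 1 fell, and the 3 tested B, T and NK cell markers fell. Scaled to all recovered reads, 3 Kupffer cell and macrophage markers rose and Timd4, with 0.31 before, had -0.03; 4 endothelial markers rose and 2 fell, 2 hepatocyte markers rose and 7 fell, 1 cholangiocyte marker fell beside the 2 that rose, and 0 erythroid markers rose. Of the 14040 genes tested, that scaling called 2347 higher and 8178 lower. No marker was at 0 in every library. The part of these shifts in the values of the 7 genes was not tested.

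**Figure D3:**
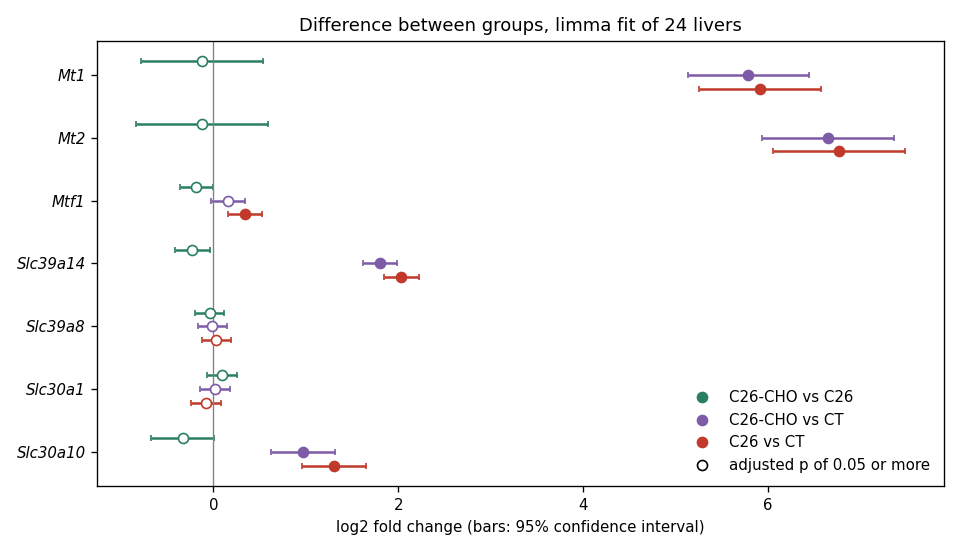
Log2 fold changes of the 7 genes in C26-CHO vs C26, C26-CHO vs CT and C26 vs CT from the limma fit of 24 livers (bars are 95% confidence intervals, open points were not called). Mt1 and Mt2 lie between 5.79 and 6.77 in both comparisons with CT, and at -0.12 and -0.13 in C26-CHO vs C26.

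Cholestyramine did not move any of the 7 genes past the threshold in tumour-bearing mice. In C26-CHO vs C26, limma called 0 of the 7, where 0.705% of all genes tested were called, 0.556% higher and 0.15% lower. At an unadjusted p under 0.05, 2 of the 7 (Slc39a14 and Mtf1) and 1832 of the 14040 genes tested were found. DESeq2 and edgeR also called 0 of the 7. Mt1 differed by -0.12 (95% confidence interval -0.78 to 0.53, adjusted p = 0.917) and Mt2 by -0.13 (-0.84 to 0.59, adjusted p = 0.923), and both intervals still hold a 1.5-fold decrease. Without C26-CHO 1 these differences were 0.01 and -0.01.

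Slc39a14 had the smallest p of the 7 in C26-CHO vs C26, with -0.23 (SE 0.0909, unadjusted p = 0.0189, limma adjusted p = 0.257). Of 8 C26-CHO livers, 4 lay below every C26 liver. Without C26-CHO 1 the difference was -0.14 (adjusted p = 0.458). Mtf1 differed by -0.18 (unadjusted p = 0.0452, adjusted p = 0.363), with 5 C26-CHO livers below every C26 liver, and by -0.14 without C26-CHO 1. Slc30a10 differed by -0.33 (95% confidence interval -0.68 to 0.01, adjusted p = 0.407), Slc39a8 by -0.04 (-0.20 to 0.12, adjusted p = 0.885) and Slc30a1 by 0.10 (-0.07 to 0.26, adjusted p = 0.665). A p that misses the threshold does not show that the groups were alike.

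Other zinc transporters moved in both directions in C26 vs CT. Of 12 other Slc39 (ZIP) genes 11 were tested, and 5 rose and 2 fell, with a median of 0.25 against 0.01 over all genes. Of all genes tested, 66.3% were called in this comparison, 33.3% higher and 32.9% lower. Slc39a1, a zinc importer of the cell surface, averaged 3532 ± 219 in C26 livers and 1391 ± 116 in CT livers (SD, n = 8 each), a log2 change of 1.35 (limma adjusted p = 4.26e-17). Slc39a13, an importer of intracellular membranes, rose by 0.82 (adjusted p = 1.12e-08). Slc39a4, known for zinc uptake in the gut, averaged 316 ± 51.1 in C26 livers and 1192 ± 112 in CT livers, a log2 change of -1.92 (adjusted p = 2.11e-13). Slc39a2 changed by -2.05 (adjusted p = 7.61e-08) from a low level, with 17.3 ± 5.24 in C26 livers and 75.2 ± 21.8 in CT livers. Scaled to all recovered reads, 2 of the 11 rose and 4 fell, and none of the 7 called genes turned direction. Over this list and the others that follow, 75 tested genes together, limma called 38 higher and 26 lower in C26 vs CT, and 27 higher and 33 lower with that scaling. Of all 14040 genes tested, that scaling called 2347 higher and 8178 lower.

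Of the 8 other Slc30 (ZnT) genes 5 were tested, and 4 rose and 1 fell in C26 vs CT, with a median of 0.65. Over all genes tested, 33.3% were called higher and 32.9% lower. Slc30a5 and Slc30a6, whose proteins pair to load zinc into the secretory pathway, rose by 1.31 (limma adjusted p = 4.3e-14) and 0.65 (adjusted p = 1.16e-09). Slc30a4, of endosomal vesicles, rose by 0.83 (adjusted p = 1.55e-07), and Slc30a9, a mitochondrial zinc transporter, fell, with -0.66 (adjusted p = 1.85e-10). Slc30a7, a Golgi transporter chosen after its value was seen, had 0.30, and -0.05 when scaled to all recovered reads. In C26-CHO vs CT, 7 of the 11 ZIP genes rose and 2 fell, and 4 of the 5 ZnT genes rose and 1 fell. Over all genes tested, 31.3% were called higher and 30.9% lower in that comparison. Scaled to all recovered reads, 2 ZIP genes rose and 4 fell in C26-CHO vs CT, and 3 ZnT genes rose and 1 fell. Of all 14040 genes tested, that scaling called 2225 higher and 7900 lower in this comparison. Slc39a9 then had -0.20, against 0.11 before, and Slc30a7 -0.01, against 0.30 before. In C26-CHO vs C26 limma called none of these 16 genes, where 0.705% of all genes tested were called. The metallothionein genes Mt3 and Mt4, known from brain and squamous epithelium, had mean values below 10 and were not tested.

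**Figure D4:**
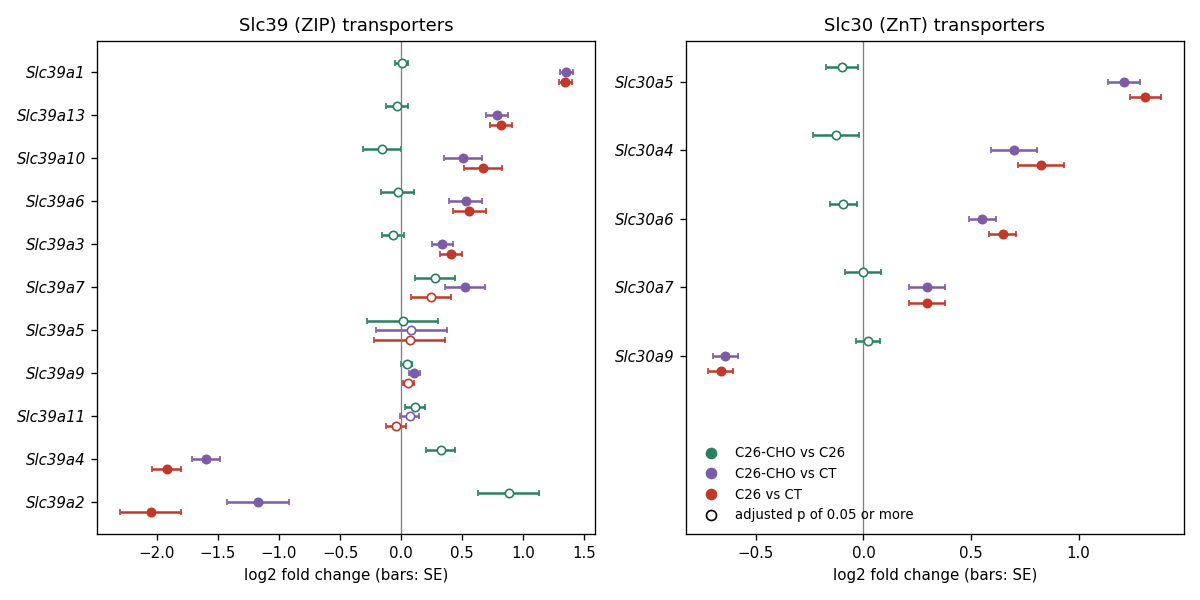
Log2 fold changes (points, with SE as bars) of the other tested ZIP genes (left) and ZnT genes (right) in C26-CHO vs C26, C26-CHO vs CT and C26 vs CT; open points were not called. Slc39a1 and Slc30a5 were higher in both tumour groups and Slc39a4, Slc39a2 and Slc30a9 lower. None of these genes was called in C26-CHO vs C26, where 0.705% of all genes tested were.

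Of 6 genes for proteins that bind zinc outside the cell, 5 rose and 1 fell in C26 vs CT, with a median of 2.26, where 33.3% of all genes tested were called higher and 32.9% lower. One of the 5, the fetuin gene Ahsg, had 0.45, but -0.61 with quantile normalization. Alb, the main zinc carrier of plasma, averaged 250837 ± 47463 in C26 livers and 1034282 ± 78170 in CT livers, a log2 change of -2.06 (limma adjusted p = 1.94e-13). A2m, a protease inhibitor that also binds zinc, rose by 9.66 (adjusted p = 8.47e-12). S100a9 and S100a8, whose proteins form the zinc-binding calprotectin of neutrophils, rose by 3.68 (adjusted p = 4.35e-11) and 3.89 (adjusted p = 6.96e-11), and both are also among the neutrophil markers whose sum is given above. In C26-CHO vs CT 5 were again called higher and 1 lower, with Ahsg at 0.47, but at -0.47 with quantile normalization. Over all genes tested, 31.3% were called higher and 30.9% lower there. In C26-CHO vs C26 limma called 0 of the 6, where 0.705% of all genes tested were called.

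Genes for other metals that the same transporters and metallothioneins handle were split. All 16 tested iron genes were called in C26 vs CT, 9 higher and 7 lower, with a median of 0.35, where 66.3% of all genes tested were called. On the scale of all recovered reads, 6 were higher and 7 lower, and Hfe, an iron-sensing gene with 0.33 before, had -0.01. On that scale, 2347 of the 14040 genes tested were called higher and 8178 lower. The iron importer gene Slc11a2 rose by 1.45 (limma adjusted p = 1.42e-13), the iron-oxidising plasma protein gene Cp by 1.48 (adjusted p = 2.02e-11) and the transferrin receptor gene Tfr2 by 0.78 (adjusted p = 2.34e-11), and Aco1, of the iron-regulatory protein, changed by -1.12 (adjusted p = 1.27e-12). Of all genes tested, 33.3% were called higher and 32.9% lower in C26 vs CT. Of 10 tested copper genes 3 rose and 5 fell, with a median of -0.18. With values scaled to all recovered reads, 2 rose and 7 fell, and the copper chaperone gene Atox1, with 0.24 before, had -0.10. The copper importer gene Slc31a1 rose by 0.56 (adjusted p = 5.5e-12), the copper and zinc superoxide dismutase gene Sod1 fell, with -1.21 (adjusted p = 1.88e-09), as did its copper chaperone Ccs with -0.79 (adjusted p = 7.61e-09) and the mitochondrial copper gene Sco1 with -0.84 (adjusted p = 6.15e-10).

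Of 10 IL-6 and STAT3 signalling genes, 7 rose and 1 fell in C26 vs CT, with a median of 0.88, where 33.3% of all genes tested were called higher and 32.9% lower. When scaled to all recovered reads, 6 rose and 1 fell, and the kinase gene Jak2, with 0.26 before, had -0.08. That scaling called 2347 of the 14040 genes tested higher and 8178 lower. Socs3, a feedback inhibitor that STAT3 switches on, averaged 5733 ± 594 in C26 livers and 126 ± 40.0 in CT livers (SD, n = 8 each), a log2 change of 5.55 (limma adjusted p = 2.43e-21). Osmr, the oncostatin M receptor gene, rose by 4.08 (adjusted p = 1.26e-17), Stat3 by 1.73 (adjusted p = 7.67e-18) and Il6st, of the shared receptor chain, by 1.21 (adjusted p = 2.69e-14). The glucocorticoid receptor and its targets were split, with 4 of 8 higher and 3 lower and a median of 0.34, and with 3 higher and 4 lower and a median of -0.005 when scaled to all recovered reads. Fkbp5, a target, rose by 1.95 (adjusted p = 4.49e-07) and Sgk1 by 1.14 (adjusted p = 8.09e-06), whereas Dusp1 fell, with -1.89 (adjusted p = 4.61e-09), and the receptor gene Nr3c1 fell, with -0.58 (adjusted p = 1.54e-06). These are RNA levels and do not measure signalling. Any part of these genes, or of the stress genes below, in the Mt1 and Mt2 values was not tested.

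Of 9 tested genes of the heavy metal and oxidative stress response, 1 rose and 6 fell in C26 vs CT, with a median of -0.73, and scaled to all recovered reads 1 rose and 8 fell. The riser was Hmox1, the haem oxygenase gene, with 1.79 (limma adjusted p = 2.6e-13). Gclc and Gclm, the subunit genes of the enzyme that starts glutathione synthesis, fell, with -1.10 (adjusted p = 7.03e-12) and -0.71 (adjusted p = 4.22e-06), and Sod2, the mitochondrial superoxide dismutase gene, fell, with -0.73 (adjusted p = 4.31e-11). Of all genes tested, 33.3% were called higher and 32.9% lower in C26 vs CT, with a median of 0.01. Scaled to all recovered reads, 2347 of the 14040 genes were called higher and 8178 lower, with a median of -0.34. In C26-CHO vs CT, 1 of these 9 rose and 4 fell, where 31.3% of all genes tested were called higher and 30.9% lower.

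In C26-CHO vs C26, limma called 0 of the 75 tested genes of these lists, where 0.705% of all genes tested were called. With so low a share, a count of 0 does not set these lists apart. The smallest adjusted p among them were those of Hfe with 0.21 (adjusted p = 0.0819) and Slc39a2 with 0.88 (adjusted p = 0.0963). Slc39a2 averaged 36.1 ± 23.04 in C26-CHO livers and 17.3 ± 5.24 in C26 livers (SD, n = 8 each).

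The genes whose level followed each of the 7 most closely from mouse to mouse were ranked by Pearson's r of log2 values after removing group means, over 24 livers and 10522 genes. The correlations are descriptions of genes chosen as the highest and carry no test. After Mt2 (r = 0.956), Mt1 was most like Tnfrsf1b, a tumour necrosis factor receptor gene (0.851), Nnmt, a nicotinamide-methylating enzyme gene (0.786), the repressor gene Bcl6 (0.769) and Mbd1 (0.749). Without CT 4 and C26-CHO 1 these were 0.896 for Mt2, 0.675 for Tnfrsf1b, 0.763 for Nnmt, 0.467 for Bcl6 and 0.474 for Mbd1, so the values of Bcl6 and Mbd1 rest in large part on those 2 livers. For Mt2 the list was Mt1, Tnfrsf1b (0.83), Bcl6 (0.759), the serum amyloid gene Saa4 (0.743) and Mbd1 (0.738). Without those 2 livers these were 0.645 for Tnfrsf1b, 0.403 for Bcl6, 0.497 for Saa4 and 0.474 for Mbd1.

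Slc30a10 had the closest companion outside the metallothioneins, the kinase gene Nek6 (0.955, and 0.956 without CT 4 and C26-CHO 1). It was followed by Lrp5, a Wnt co-receptor gene (0.897), Bhmt, a betaine-using methyltransferase gene (0.888), Ppp2r1b (0.846) and Prkaca (0.843). Slc39a14 was most like AA986860 (0.878), the fibrinogen chain genes Fgb (0.874) and Fgg (0.869), Ap4b1 (0.87) and Sdsl (0.86), and without those 2 livers Fgb had 0.605, Fgg 0.613, AA986860 0.692, Sdsl 0.568 and Ap4b1 0.821. Among the genes most like Slc30a1 were Masp1 (0.805), Uox (0.791) and Stard7 (0.769). Mtf1 was most like Arf6 (0.84), Pde12 (0.823), Ythdc1 (0.81), Ccnt1 (0.81) and Ythdf2 (0.806). Slc39a8 had the loosest companions, Sema3d (0.734), Ano6 (0.685), Insig2 (0.673), Ctdspl (0.666) and Sgk3 (0.665).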

How the data were processed

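Liver RNA of 24 mice was sequenced. Per the labels' protocols, Trizol extraction was followed by DNase I and Illumina library preparation. Per the submitters' processing notes, bcl2fastq 2.17, FastQC, Trimmomatic 0.38, STAR 2.6.1d, DESeq2 1.22.2 and the build GRCm38 were used. Which counting tool, annotation and strand setting they used is not given in the sources used here. The authors deposited a normalized signal, the count of each gene divided by a size factor of its library. All values are whole multiples of their column's smallest step (100% within 0.001 of a read), so the reads were recovered. No column was left unused.

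The main test was limma 3.58.1 (R 4.3.3) on log2(value + 1), in a single fit of the 3 groups, for 14040 genes with a mean of at least 10, with Benjamini-Hochberg adjustment within each comparison. The fit was tested on simulated counts in which few genes were changed, as many higher as lower. That setting differs from these data, in which most genes tested were called in the comparisons with CT. Alternatives were other scalings (all recovered reads, quantiles), edgeR 4.0.16, DESeq2 1.42.0, other pseudocounts and filters, only the compared groups, a replicate block and each library left out. DESeq2 without outlier handling, list counts under each alternative, means, shares and ranks without C26-CHO 1 or CT 4, and gaps between mice without the log were added after seeing the data. Ratios and correlations used exact permutation tests. Symbols and coordinates are from GENCODE M21, and 21959 of 22392 identifiers had a symbol. Named were all 7 genes, up to 4 list genes of smallest p per comparison, and the 5 most alike genes of each of the 7 (mean of at least 50, no clone names). Some of the most alike genes are not reported here. The genes and lists were chosen with earlier results of these data known. The labels number the mice but do not describe how they were housed or sampled, so p-values measure the spread between these mice.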

Additional observations from a re-analysis of the deposited data

Results flagged for a closer look

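A value was singled out when, on the log2 scale of the tests, its gap to the nearest mouse of its group, divided by the range of the group, passed Dixon's 95% critical value (0.526 for 8 mice). Of 27 groups tested 4 had such a mouse, where chance gives about 1 in 20. C26-CHO 1 was low for Mt1, at 26525 (gap 0.685), for Mt2, at 19368 (gap 0.704), and for Slc39a14, at 12355 (gap 0.665). The same liver lay between tumour-bearing and sham livers on the first principal component of all genes tested (-13.41), and had the lowest summed hepatocyte, cholangiocyte and neutrophil marker values of its group, at 1480456, 2164 and 185. Its summed B, T and NK cell marker value, 151.0, was the highest of its group, with a group median of 54.3. CT 4 was high for Mt2, at 2243 (gap 0.58). On values without the log, 5 of the 27 groups had such a mouse: the same 4, and CT 4 for Mt1, at 4160 (gap 0.755). Its summed hepatocyte and erythroid marker values, 2195755 and 23440, were the highest of the sham group. The part of these measures in the singled-out values was not tested.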

How the results depend on the processing

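The direction and calls of Mt1, Mt2, Slc39a14 and Slc30a10 in C26 vs CT and C26-CHO vs CT held under every alternative run, and no alternative called any of the 7 genes in C26-CHO vs C26. Scaling to all recovered reads moved the median of all genes to -0.34 in C26 vs CT and -0.30 in C26-CHO vs CT, with 2347 genes higher and 8178 lower, and 2225 higher and 7900 lower. Under it, in C26 vs CT, Mtf1 had -0.003 (adjusted p = 0.976), Slc39a8 -0.32 and Slc30a1 -0.43, and in C26-CHO vs CT Slc39a8 had -0.32 and Slc30a1 -0.29. DESeq2 replaces outlying counts in groups of this size, which lowered Mt1 to 3.31 and Mt2 to 3.42 in C26 vs CT, and to 3.22 and 3.32 in C26-CHO vs CT. With that step off the values were 5.48 and 6.14, and 5.39 and 6.04. Leaving out each library in turn gave Mt1 from 5.66 to 6.23 and Mt2 from 6.58 to 7.16 in C26 vs CT, 5 calls in C26 vs CT throughout, 0 in C26-CHO vs C26, and 4 or 5 in C26-CHO vs CT. List genes called in C26-CHO vs C26 numbered 0 in the limma fit, 1 when scaled to all recovered reads, 3 with DESeq2 with or without outlier handling, 1 with the replicate block, and 0 to 1 with each library left out; the cause was not tested. All genes called in that comparison numbered 99 in the limma fit, 10 with only the 2 groups compared, and 326 with DESeq2. With the replicate block, 0 of the 7 genes were called in C26-CHO vs C26, 4 in C26-CHO vs CT and 5 in C26 vs CT. Of all genes tested, the block called 9643 in C26 vs CT and 9079 in C26-CHO vs CT, against 9305 and 8739 without it. In C26-CHO vs C26 it called 97, against 99. Deviations of mice with the same number correlated at -0.20 to 0.25. They were over 0.1 in 2 of 8 pairs in C26-CHO vs C26, 4 in C26-CHO vs CT and 3 in C26 vs CT. Mice with different numbers were not compared, so these values cannot tell whether the numbers pair the mice. Depth does not limit the 7 genes, whose values rest on at least 152 reads each.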
